A study of Bos taurus with 10 samples.

Results

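Reads from unprocessed tRNA transcripts were examined in small RNA libraries of cattle sperm. A row belonged to the set if its name carried the prefix tRNA or tRX and ended in one of the 3 read classes of unprocessed transcripts, which are whole precursor, partial precursor and trailer. This gave 2727 rows of the 184397 in the table, which are 909 loci with 3 rows each, 59 of prefix tRNA and 850 of prefix tRX. The 10 sperm samples had no extra treatment. Each of the 4 groups held 3 libraries: high bull fertility (HB), low bull fertility (LB), high associated daughter fertility (HD) and low associated daughter fertility (LD). A total of 2 libraries belong to HB as well as to a daughter group, 1 to HD and 1 to LD, so the bull and daughter comparisons share them. The labels do not say that samples came from separate bulls, and the sources used here do not give breed or age, so p-values measure only the spread between these samples.

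A tRNA gene is transcribed by RNA polymerase III as a precursor with a short leader before and a trailer after the mature tRNA. RNase P removes the leader, RNase Z cuts off the trailer, and the CCA end is then added. A released trailer ends in the run of U at which the polymerase stops, and such trailers are a known class of tRNA-derived small RNA in cultured human cells. In mature sperm, transcription is largely shut down and tRNA fragments, above all 5′ fragments of glycine and glutamate tRNAs, are a major class of small RNA. The prefix tRX marks predicted tRNA-like loci of low confidence, here with the anticodon written NNN, and ruminant genomes carry many short repeats derived from tRNA.

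The authors' deposited table gives 1 normalized count per group and row, with no value per sample. The group values acted like the median of the group's 3 libraries, so one above 0 means that at least 2 libraries had reads. Each positive value could be divided into whole reads of 1 library, in which a read counted for 0.453 to 1.62, and this number of reads is given beside the values below. Library depth, as reads behind each normalized count, spanned 0.618 to 1.39 in HB, 0.945 to 1.89 in LB, 0.618 to 0.785 in HD and 0.903 to 2.21 in LD. Among miRNAs, all 3 male germ cell markers were above 0 and together held 3.02% (bull fertility table) and 3.01% (daughter fertility table) of the summed means. The 5 leukocyte markers held 0.401% and 0.394%, the 6 epithelial markers 0.321% and 0.286%, and the 3 red blood cell markers 0.239% and 0.215%, none of them at 0. In such bulk samples fewer cells of a type and less RNA per cell cannot be told apart, and the part of other cells in the results below was not tested.

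Unprocessed reads were a trace of the sperm tRNA signal. The 2727 rows together summed to 408.0 normalized counts in HB, 1338 in LB, 756 in HD and 686 in LD. These sums were 0.0229%, 0.0626%, 0.0372% and 0.0288% of all values of the table in the same groups. Of all rows, 1154 had a fold change in the authors' deposited table, which needs a read in some library, and 302 rows at 254 loci had a value above 0 in at least 1 group. Most values were small: of 596 positive values, 203 (34.1%) stood for 1 read, 463 (77.7%) for at most 5 reads, 55 for at least 10 and 4 for at least 100.

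The read classes were far from equal. Partial precursor reads, which going by the name cover part of the tRNA together with a flank, made up 92.0%, 87.3%, 91.3% and 84.2% of the summed values in HB, LB, HD and LD. Trailers held 6.24%, 11.0%, 6.59% and 14.1%, and whole precursors 1.77%, 1.70%, 2.06% and 1.70%. The sources used here do not give the exact read ends that define each class.

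**Figure D1:**
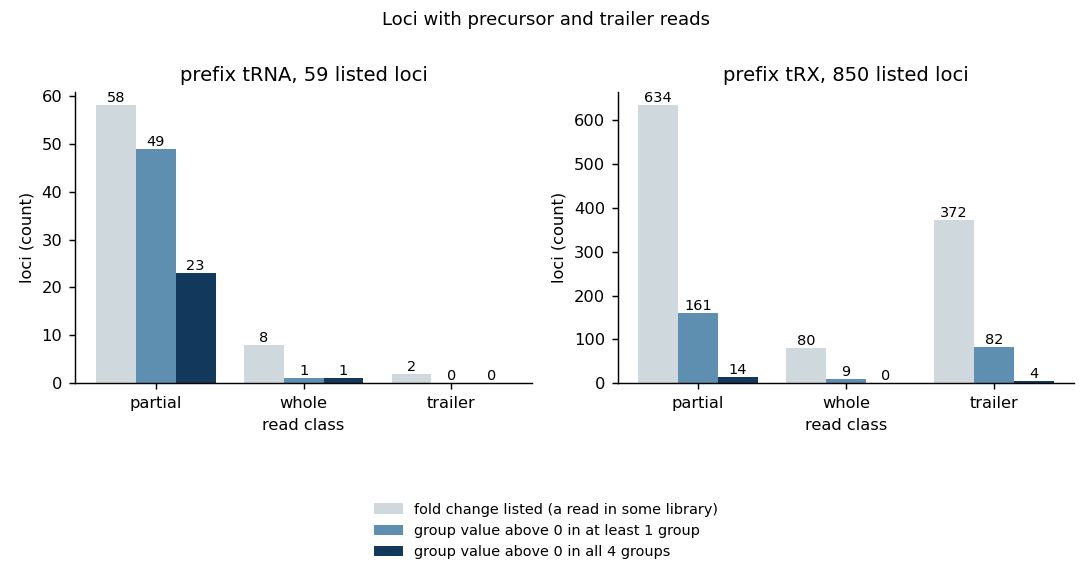
Number of listed loci (y axis, linear) by read class (x axis) for prefix tRNA at left and prefix tRX at right, with bars for a listed fold change, for a group value above 0 in at least 1 group, and for one in all 4 groups. Among listed loci, which all had a read in some library, partial precursor values were above 0 at 49 of 59 tRNA loci and 161 of 850 tRX loci. Trailer values above 0 were seen at 82 tRX loci and at 0 tRNA loci.

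Loci of prefix tRNA retained partial precursor reads and almost nothing else. Of 59 listed loci, 49 (83.1%) had a partial precursor value above 0, and 23 had one in all 4 groups. All 59 listed tRNA loci and all 850 listed tRX loci had a fold change in some class. Percentages in this paragraph are therefore shares of loci with a read in some library, not of all tRNA genes. A whole precursor value above 0 was found at 1 locus, that of selenocysteine tRNA, and a trailer value at 0 of 59. For whole precursors, 8 of the 59 loci had a listed fold change. For trailers, 2 of the 59 loci had a listed fold change, so a few trailer reads occurred, but in no group did 2 libraries hold them. Among tRX loci 161 of 850 (18.9%) had a partial precursor value above 0, 82 (9.65%) a trailer value and 9 (1.06%) a whole precursor value. Serine tRNA genes, whose trailers are abundant in some human cells, had 1 listed locus, tRNA-Ser-GCT-2-1, with a mean partial precursor value of 0.722 and a trailer value of 0. Among 25 serine tRX loci, 3 had a trailer above 0, and the highest trailer mean among them was 1.49.

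A single glycine tRNA gene held the largest share of the signal. For tRNA-Gly-GCC-1-6, a copy of the tRNA that reads GGC codons, the partial precursor value was 160.3 in HB, 436.0 in LB, 314.7 in HD and 160.3 in LD. These values stood for 222, 825, 240 and 222 reads, and HB and LD are equal, as happens where the library labelled both HB and LD sets both values. The 95% Poisson intervals, which cover counting error only, were 194 to 253 reads around 222, 770 to 883 around 825 and 211 to 272 around 240. This row made up 39.3% of the summed precursor and trailer values in HB, 32.6% in LB, 41.7% in HD and 23.4% in LD.

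**Figure D2:**
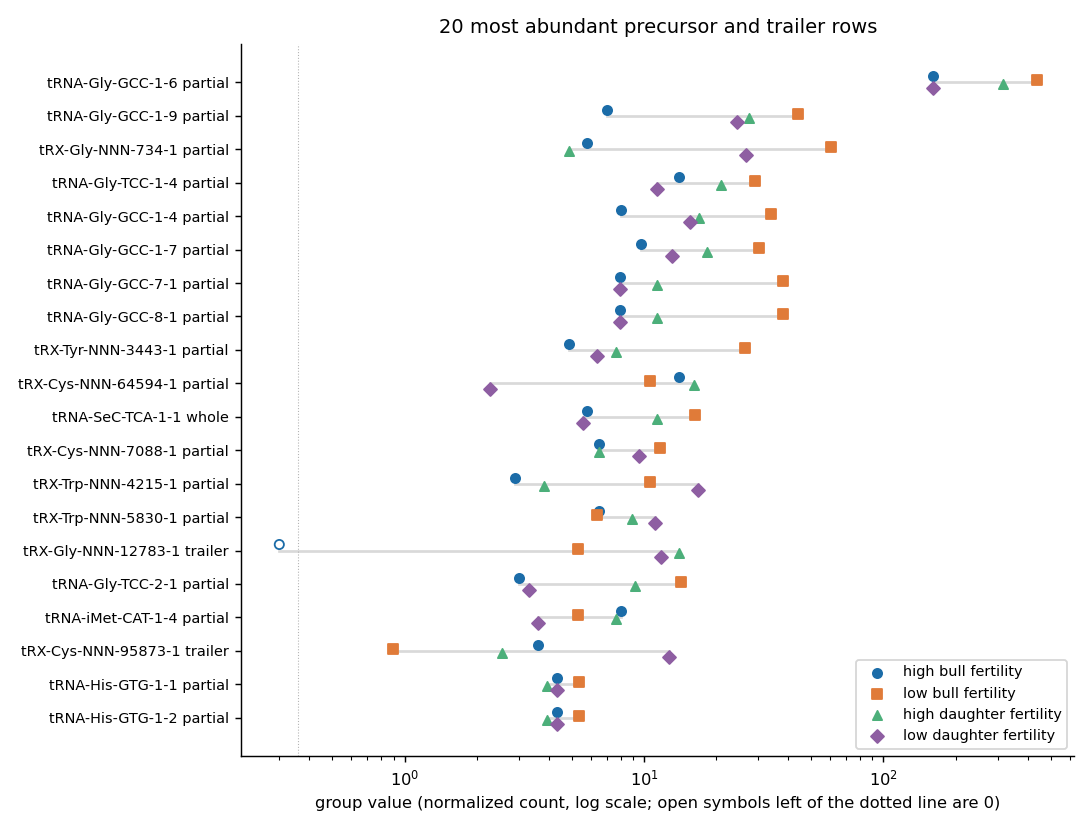
Group values (x axis, normalized counts on a log scale) of the 20 rows with the highest mean over the 4 groups (y axis), with a symbol for each group and open symbols for 0. tRNA-Gly-GCC-1-6 stands alone above 100, the next 2 rows have means of 25.7 and 24.4, and the first 8 rows are all glycine loci.

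The precursor signal differed among gene copies that make the same mature tRNA. The mature name tRNA-Gly-GCC-1 has 9 listed loci, all with partial precursor reads above 0, and their means over the 4 groups ran from 1.03 to 267.8 with a median of 3.97. The mean of copy 1-6 was 10.4 times that of the next copy, and it held 83.2%, 76.7%, 81.9% and 72.1% of the copies' sum in HB, LB, HD and LD. Next came copy 1-9 with values of 7.01, 43.8, 27.5 and 24.5 in the same order of groups. Copy 1-4 had 8.01, 33.9, 17.0 and 15.5, and copy 1-7 had 9.71, 30.1, 18.4 and 13.1. The other copies had means below 4, and copies 1-1 and 1-2 were at 0 in some groups. In all 4 groups copy 1-6 was the highest, so its place does not rest on 1 library, and every copy had its highest value in LB. Values are reads per locus and are not scaled by length, since locus lengths are not in the table.

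**Figure D3:**
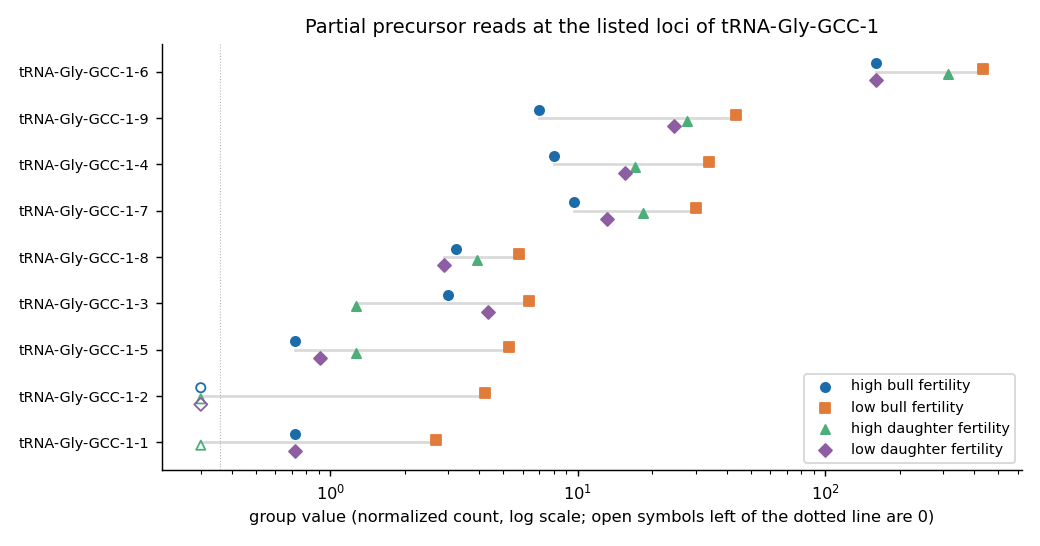
Partial precursor values (x axis, normalized counts on a log scale) at the 9 listed loci of tRNA-Gly-GCC-1 (y axis), with a symbol for each group and open symbols for 0. Copy 1-6 lies between 160.3 and 436.0, and the LB square is the rightmost symbol at all 9 loci.

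Copies of histidine tRNA were more even, which did not hold for every other family. Means ran from 0.223 to 2.66 over the 5 listed loci of tRNA-Glu-CTC-1. They ran from 0 to 0.988 over the 5 of tRNA-Leu-CAG-1 and from 0.396 to 6.14 over the 3 of tRNA-iMet-CAT-1. The 9 listed loci of tRNA-His-GTG-1 had means from 2.94 to 4.49, with 5 distinct sets of values among them. Copies 1-1 and 1-2 shared 4.33, 5.36, 3.93 and 4.33 in HB, LB, HD and LD. Copies 1-3, 1-8 and 1-9 shared 1.44, 5.36, 6.37 and 1.81. Loci with identical values may have been assigned the same reads, since nothing states how reads that match several loci were counted, and such loci cannot be told apart. The same held for tRNA-Gly-GCC-7-1 and tRNA-Gly-GCC-8-1, both at 7.94, 38.0, 11.3 and 7.94, and for the 3 loci of tRNA-Gly-GCC-2. Over all 302 rows above 0 there were 159 distinct sets of 4 values.

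Further glycine genes came next in abundance. tRNA-Gly-TCC-1-4, which reads GGA codons, had partial precursor values of 14.0, 29.1, 21.0 and 11.3 in HB, LB, HD and LD, from 14, 55, 16 and 25 reads. tRNA-Gly-TCC-2-1 had 3.00, 14.3, 9.18 and 3.32. Both had their highest value in LB.

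The initiator tRNA, which starts protein synthesis, had reads at 3 loci with means from 0.396 to 6.14. Its leading copy, tRNA-iMet-CAT-1-4, had partial precursor values of 8.01 in HB, 5.29 in LB, 7.64 in HD and 3.61 in LD, from 5 to 8 reads each. Its value was higher in HB than in LB, the other order than at the glycine loci named above, though it rests on few reads.

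Selenocysteine tRNA was the only listed locus of prefix tRNA with a whole precursor group value above 0. A fold change for whole precursors was listed at 8 of the 59 loci, so a few such reads occurred elsewhere. This tRNA inserts selenocysteine into selenoproteins, among them a glutathione peroxidase needed in sperm maturation, and in vertebrates its transcription starts at the first base of the mature tRNA, so its precursor has no leader to remove. For tRNA-SeC-TCA-1-1 the whole precursor value was 5.78 in HB, 16.4 in LB, 11.3 in HD and 5.54 in LD, from 8, 31, 7 and 5 reads. Its partial precursor value was lower, at 5.05, 4.76, 0 and 1.11. No other of the 909 loci had a whole precursor value above 0 in all 4 groups. The mean whole precursor value of this locus, 9.76, was above the mean of 3.34 for its full-length mature reads.

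Set beside mature reads, isotypes differed widely. Glycine loci held 84.0% of the precursor and trailer signal of prefix tRNA but 30.2% of the mature sense signal, or 1.03 precursor reads per 1000 mature reads. Histidine held 6.67% and 12.4%, or 0.199 per 1000, and glutamate 2.85% and 20.2%, or 0.0523 per 1000. The glycine anticodons were unlike, with 5.48 per 1000 for TCC, 1.40 for GCC and 0.0338 for CCC. The CCC ratio was thus below those of histidine and glutamate. The glycine figure also rests largely on 1 locus, tRNA-Gly-GCC-1-6, with a mean of 267.8 in a glycine sum of 409.2. Mature names with nearly equal values may have been assigned the same reads, which the sums would then count repeatedly. Mean 5′ values were 76804 and 76816 for tRNA-Glu-CTC-1 and tRNA-Glu-CTC-2, and 19052 for both tRNA-Gly-GCC-2 and tRNA-Gly-GCC-7. Histidine has 1 mature name, so shares and ratios of isotypes may be affected unequally. Valine tRNAs, with 28 mature names and 16.7% of the mature signal, had 0 listed precursor loci, as did the 35 mature names of alanine. Of 24 isotype names, 11 had a listed locus and 9 a locus above 0. Isoacceptors whose vertebrate genes commonly hold an intron, which adds a splicing step, were Tyr-GTA, Leu-CAA, Arg-TCT and Ile-TAT. Their 25 mature names summed to a mean of 9438 normalized counts, with 0 listed precursor loci. Of all 54 anticodons with mature names, 18 had a listed locus, so most lacked one. A part of introns in this was not tested.

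The highest ratios belonged to glycine and selenocysteine tRNAs, though not every glycine name was high. tRNA-Gly-TCC-1 had 8.72 precursor reads per 1000 mature reads, tRNA-SeC-TCA-1 had 6.83, tRNA-Gly-TCC-2 had 4.11 and tRNA-Gly-GCC-1 had 1.94, while tRNA-Glu-TTC-3 had 0.0141. tRNA-Ser-GCT-2, at 1.29, was above tRNA-Gly-GCC-7 and tRNA-Gly-GCC-8, both at 0.793. tRNA-Gly-GCC-2 at 0.202, tRNA-Gly-CCC-1 at 0.149 and tRNA-Gly-CCC-7 at 0.0936 were below the median given below. By group, tRNA-Gly-GCC-1 stood at 1.80 per 1000 in HB, 2.65 in LB, 2.08 in HD and 1.12 in LD. tRNA-His-GTG-1 stood at 0.128, 0.303, 0.237 and 0.130, so in every group the ratio of tRNA-Gly-GCC-1 was above that of histidine. The same did not hold for tRNA-Gly-GCC-2, which was below histidine in HB, at 0, and in LB, at 0.233. Across the 21 mature names with precursor reads above 0, the median was 0.331 per 1000, and Pearson's r between log10 precursor and log10 mature values was 0.44, with Spearman's rho 0.35. This describes transcripts that share the same libraries and depths, and some of which may share reads.

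**Figure D4:**
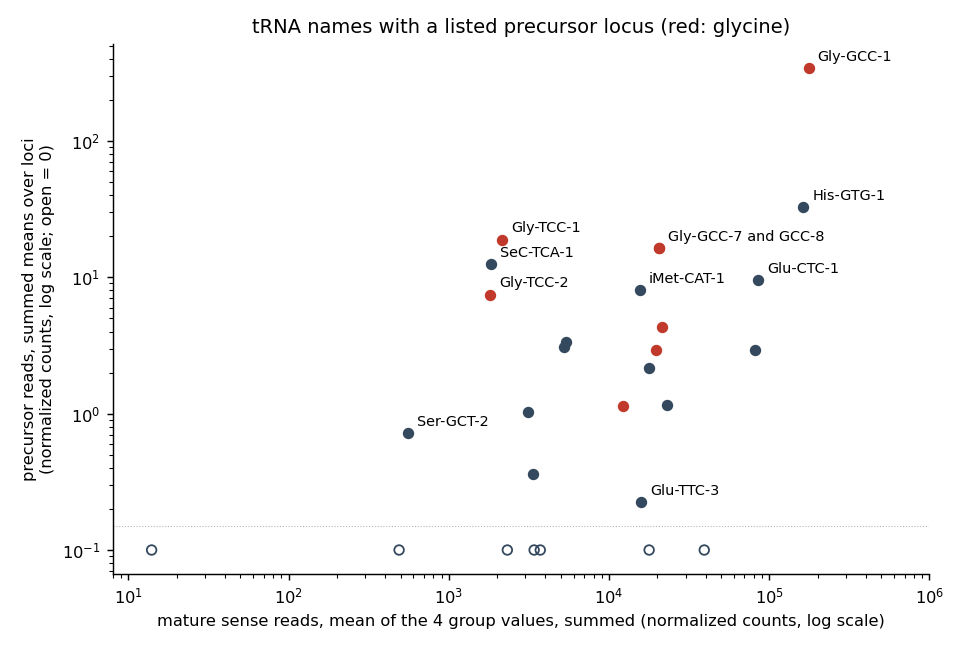
Summed mean precursor values (y axis) against summed mean mature sense values (x axis) for each tRNA name with a listed precursor locus, both in normalized counts on log scales, glycine in red and values of 0 as open circles below the dotted line. tRNA-Gly-GCC-1 lies 10.5 times above tRNA-His-GTG-1 in precursor reads at a mature level of 176169 against 163350.

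Loci of prefix tRX held the remainder of the signal and all of the trailers above 0. They contributed 29.8%, 38.6%, 31.8% and 52.7% of the summed values in HB, LB, HD and LD. Predicted cysteine loci were 544 of the 850 listed tRX loci (64.0%), against 45.7% of mature tRX names, and held 40.0% of the tRX sum. Glycine loci were 107 (12.6% against 18.4%) with 24.4% of the sum, and 27 tryptophan loci held 9.56%. Glutamate, with 2270 mature tRX names, had 18 listed loci and 2.59% of the sum.

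The highest tRX row was the partial precursor of tRX-Gly-NNN-734-1, with 5.78 in HB, 60.3 in LB, 4.86 in HD and 26.7 in LD, from 8, 57, 3 and 59 reads. Both groups of high fertility were below both groups of low fertility at this locus, yet the log2 fold change in the authors' deposited table was -1.58 for bull fertility (p 0.141) and 0.03 for daughter fertility (p 0.979), so the deposited fold changes need not follow the group values. tRX-Cys-NNN-64594-1 had the other order in its extremes, with 14.0, 10.6, 16.2 and 2.26. tRX-Tyr-NNN-3443-1 had 4.86, 26.4, 7.64 and 6.34. The highest trailer was that of tRX-Gly-NNN-12783-1, at 0, 5.29, 14.0 and 11.8, from 0 to 26 reads. It was followed by the trailer of tRX-Cys-NNN-95873-1, at 3.61, 0.893, 2.55 and 12.7, where the LB value is 1 read. The trailer of tRX-Cys-NNN-145674-1 was above 0 in LB alone, at 12.7 from 24 reads.

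Most tRX loci with such reads had no mature sense value above 0 in the table. Of the 205 tRX loci above 0, 150 had no row under their mature name in the table, 15 had mature sense rows at 0, and 40 had mature sense reads above 0. Whether rows are missing from the table is not known, so the 150 are not shown to lack mature reads. Together the 165 loci with no mature sense value above 0 in the table held 73.2% of the tRX signal, among them tRX-Gly-NNN-734-1, tRX-Gly-NNN-12783-1, tRX-Cys-NNN-95873-1 and tRX-Cys-NNN-7088-1. Of the 40 others, 18 had more precursor and trailer than mature reads, and the median ratio was 0.783. tRX-Tyr-NNN-3443-1 had a mean of 13.1 against 0.488 for its mature sense reads, and tRX-Cys-NNN-64594-1 had 11.1 against 1.16. The opposite held for tRX-Trp-NNN-5830-1, with 8.65 against 104.0, nearly all of them 5′ fragments. By contrast all 49 tRNA-prefix loci above 0 had mature reads, with a median of 3.58e-05 unprocessed reads per mature read. Here each locus was set against the mature reads of its whole name, which the 9 loci of tRNA-His-GTG-1, for example, share. With loci summed per mature name, the tRNA median was 0.331 per 1000. The medians per locus of tRNA and tRX are thus not like for like where a name has several loci.

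Reads of several classes met at few loci. Of the 254 loci above 0, 168 had partial precursor reads alone, 44 trailers alone, 32 partial precursor and trailer reads, 4 partial and whole precursor reads, and 6 all 3 classes. The 6 were all tRX loci, 3 of predicted tryptophan and 3 of predicted cysteine. At tRX-Trp-NNN-4215-1 the means were 8.51 for partial precursors, 2.74 for trailers and 1.33 for whole precursors. At tRX-Cys-NNN-95873-1 they were 4.07, 4.93 and 0.766, and at tRX-Cys-NNN-145674-1 they were 3.43, 3.17 and 0.541. In no locus did 2 classes reach a mean of 10.

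Presence in the 4 groups was uneven. Rows above 0 numbered 92 in HB, 215 in LB, 120 in HD and 169 in LD, which are 0.377%, 0.761%, 0.554% and 0.439% of all rows above 0 in those groups. Of the 302 rows, 42 were above 0 in all 4 groups, 24 of prefix tRNA and 18 of prefix tRX. A further 143 were above 0 in 1 group: 76 in LB, 47 in LD, 19 in HD and 1 in HB. The design bears on these counts, since 2 of the 3 HB libraries also belong to a daughter group and LB shares none. Every row above 0 in HB thus had reads in a library that a daughter group also holds. The same counts were not taken over all rows, so no fertility pattern can be read from them. The groups of low fertility also held the libraries with the most reads per normalized count, and the part of depth in these counts was not tested.

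High was then compared with low fertility, using the fold changes and p-values of the authors' deposited table with a Benjamini-Hochberg adjustment over all its rows. No precursor or trailer row passed an adjusted p of 0.05 in either comparison, nor did any row of the table (0% called). At an unadjusted p under 0.05 in the authors' deposited table, 5 of 1153 member rows were counted for bull fertility, all 5 lower with high fertility, which is 0.434% beside 0.249% of all rows. Over all rows, 79 of the 246 counted were lower. The 5 are not separate observations. They include tRNA-Gly-GCC-7-1 and tRNA-Gly-GCC-8-1, which share all values, and both the trailer and the partial precursor of tRX-Gly-NNN-22134-1. With daughter fertility 3 of 1153 were counted in the authors' deposited table, all 3 higher with high fertility, which is 0.26% beside 1.33% of all rows. Over all rows, 149 of the 1311 counted were higher, and the 3 include the same glycine pair.

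For bull fertility the direction was mostly toward lower values with high fertility, without a row that passed. By the authors' deposited table, negative fold changes were found in 663 of 1154 member rows, positive ones in 181 and values of 0 in 310, with a median log2 fold change of -0.38. Over all 99722 rows of the authors' deposited table, negative values numbered 40774, positive ones 32719 and zeros 26229, with a median of 0. Of the 10 member rows with a mean of at least 10, 10 were negative in the authors' deposited table, with a median log2 fold change of -1.42. All 3850 rows of the authors' deposited table with such a mean had a median of -0.03, and 53.1% of them were negative. The mean that selects these rows is taken over the same group values, so a row high in LB is more easily among them. All 19 listed glycine loci of prefix tRNA had a partial precursor value above 0, and all 19 fold changes were negative in the authors' deposited table, with a median of -1.51, against 7 of 9 histidine rows (median -0.50) and 2 of the 8 glutamate rows above 0 (median 0.42). By the group values, 9 of the 10 abundant rows and 19 of the 19 glycine rows were also lower in HB than in LB, the exception being tRX-Cys-NNN-64594-1. Glycine rows share libraries and may share reads, so they are not 19 separate observations. Mature sense values of every glycine name with a listed locus were also lower in HB than in LB. For tRNA-Gly-GCC-1 they were 107143 against 214540, and for tRNA-His-GTG-1 they were 136209 against 173716. How far the precursor values follow the mature ones was not tested.

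For single loci the spread was wide. The log2 fold change of tRNA-Gly-GCC-1-6 with bull fertility was -1.57 in the authors' deposited table, with a standard error of 0.83 implied by its p of 0.0581. tRNA-Gly-GCC-7-1 and tRNA-Gly-GCC-8-1, which share all values, were at -1.98 (implied standard error 0.94, unadjusted p 0.0358, adjusted p 1) in the authors' deposited table. The lowest p of a member in the authors' deposited table was 0.0153, for the partial precursor of tRX-Phe-NNN-1284-1 at -3.22, with values of 0 and 11.1 in HB and LB. The trailer of tRX-Gly-NNN-22134-1, with 0 and 12.2, was at -3.10 (p 0.0207) and its partial precursor at -2.64 (p 0.0335) in the authors' deposited table. Among positive changes, 5 predicted cysteine loci with group values of 2.00 in HB and 0 in LB had the smallest p in the authors' deposited table, led by tRX-Cys-NNN-126649-1 at 1.99 with a p of 0.169. None of these passed the adjustment over the whole table.

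**Figure D5:**
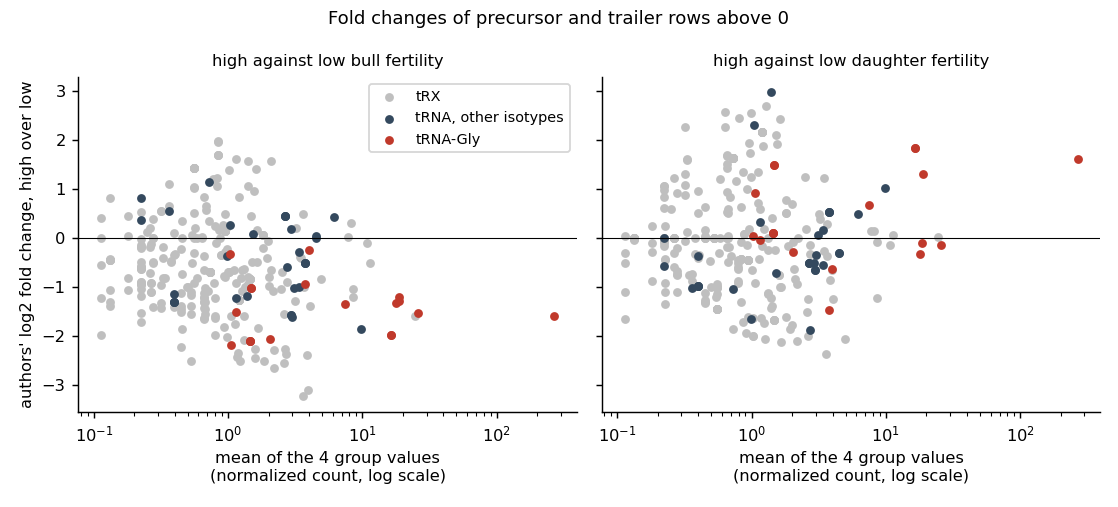
The authors' log2 fold change, high over low fertility (y axis), against the mean of the 4 group values in normalized counts on a log scale (x axis) for the member rows above 0, bull fertility at left and daughter fertility at right. All 19 red glycine points lie below 0 at left, with a median of -1.51, and 12 of 19 lie above 0 at right, with a median of 0.11.

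For daughter fertility the deposited fold changes and the group values gave different tallies of direction. By the authors' deposited table, fold changes were positive in 288 of 1154 rows, negative in 468 and at 0 in 398, with a median log2 fold change of 0, beside a median of -0.04 over all rows. Of the 10 rows with a mean of at least 10, 6 were positive and 4 negative in the authors' deposited table, with a median of 0.05, beside 0.04 for all rows with such a mean. By the group values 9 of these 10 rows were higher in HD than in LD, all but tRX-Gly-NNN-734-1, and in 5 of the 10 the fold change had the opposite sign. Of 19 glycine rows of prefix tRNA, 12 were positive and 7 negative in the authors' deposited table, with a median of 0.11. By the group values 15 of the 19 were higher in HD, 3 were lower and 1 was 0 in both, and 6 had opposite signs. Over all 302 rows above 0, the group value was higher in HD in 94, lower in 129 and 0 in both in 79. No test stands behind the group values, which carry no spread.

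The abundant glycine rows named here were all higher in HD than in LD by their group values, while their deposited fold changes had both signs. tRNA-Gly-GCC-1-6 was at 1.62 with daughter fertility in the authors' deposited table (implied standard error 0.83, unadjusted p 0.0507). tRNA-Gly-GCC-7-1 and tRNA-Gly-GCC-8-1 were at 1.85 in the authors' deposited table (implied standard error 0.94, unadjusted p 0.0484), and tRNA-Gly-TCC-1-4 at 1.32 (p 0.159). Copies 1-4, 1-7 and 1-9 of tRNA-Gly-GCC-1 were at -0.09, -0.31 and -0.13 in the authors' deposited table, against the order of their group values, which were 17.0 and 15.5, 18.4 and 13.1, and 27.5 and 24.5 in HD and LD. A glutamate locus, tRNA-Glu-CTC-1-2, had the lowest daughter fertility p among members in the authors' deposited table, 0.0345 at 2.98, with group values of 1.31 and 0, the former being 1 read. Adjusted over the table, all of these had a p of 1.

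The 2 comparisons are not independent. Of 92 member rows above 0 in HB, 20 had the same value in LD and 7 the same value in HD, as a shared library gives. Both tRNA-Gly-GCC-1-6 and the pair tRNA-Gly-GCC-7-1 and 8-1 were among the 20, which puts the same library value on the high side for bull fertility and on the low side for daughter fertility. Their implied standard errors were also nearly equal in the 2 comparisons, and the sources used here do not say whether the authors fitted all groups together.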

How the data were processed

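RNA from 10 cattle sperm samples was extracted with miRNeasy, and NEBNext small RNA libraries were sequenced, per the labels' protocols. Per the submitters' processing notes, the tools included Trimmomatic 0.39 and DESeq2 1.34.0, with no role stated. The sources used here do not give the aligner, genome build, tRNA annotation, read class definitions or treatment of multiply matching reads, and no coordinates or sequences are printed. The tsRNA table, made by the authors, has, per the file headers, columns of log2 fold change and of p-value for both comparisons. It also has the authors' normalized signal, 1 value for each group. The 2 deposited miRNA tables were used for marker levels alone, as the authors' signal (mean normalized count).

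Every positive group value was divided by the 3 steps found in its group (tolerance 1e-06) to give reads. Benjamini-Hochberg adjustment ran over all rows with a p (threshold 0.05), and the standard error was derived from the authors' log2 fold change and p. Medians over fold changes include those of 0. The step search and the adjustment were tested on simulated data, with Python 3.11.15, pandas 2.3.3, numpy 2.4.6 and scipy 1.17.1. Poisson intervals are at 95%.

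Count tests were planned in case of counts per sample. The table gives group values, so the authors' own comparisons were used. Named rows were the 20 most abundant of prefix tRNA and 10 of prefix tRX, the first 8 of each read class, leading loci of isotypes, up to 5 of smallest p per comparison and direction, and loci with all classes. Rows chosen after their values were seen are tRX-Gly-NNN-22134-1, tRNA-Glu-CTC-1-2, the loci with all 3 classes and the tRX loci set beside their mature reads. The members and lists were chosen with earlier results of these data known. Columns of per-sample values that were used number 0.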

Additional observations from a re-analysis of the deposited data

How the results depend on the processing

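No paired analysis was possible because the table holds 1 value per group. Leaving out a replicate, other count normalizations, low-count filters and a refit were not run for that reason. The loci above 0 (210 partial, 10 whole, 82 trailer) became 15, 1 and 4 at a value of at least 10 in some group, 37, 1 and 4 above 0 in all 4 groups, 127, 8 and 42 with equal value sets counted once, and 49, 1 and 0 for prefix tRNA alone. The members' share of the signal in HB, LB, HD and LD became 0.0139%, 0.0422%, 0.0217% and 0.022% without tRNA-Gly-GCC-1-6. Within prefix tRNA it was 0.028%, 0.0584%, 0.0387% and 0.0217%, and with equal value sets counted once 0.0207%, 0.0533%, 0.0332% and 0.0243%. Rows past the threshold stayed at 0 when adjusted over rows with a mean of at least 10 or over prefix tRNA, and numbered 5 and 3 at an unadjusted p under 0.05. The median log2 fold change for bull fertility (-0.38) was 0 from group values with a pseudocount of 1 and also with 10, where most members are 0 in both groups, -1.42 at a mean of at least 10 and -0.50 for prefix tRNA. For daughter fertility (0) it was -0.11 for prefix tRNA. At most 5 reads stand behind 77.7% of positive values, and the part of depth in presence at single loci was not tested.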
